A study of Mus musculus with 5 samples.

Results

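The genes described here encode cell adhesion proteins and cell surface receptors, read in a RIP-chip experiment on R1 cells, a mouse embryonic stem cell line. RIP-chip is RNA immunoprecipitation followed by microarray hybridisation. The 36 members were taken by gene symbol from a list, with the brightest probe set of each gene, out of 19937 genes that the platform annotation pairs with a probe set of their own. They were sorted by role into 2 cadherins, 5 tight junction genes, 3 desmosome genes, 5 integrin subunits, 8 immunoglobulin-superfamily and other adhesion genes, 2 tetraspanins, 7 receptors and 4 proteoglycans. Of these, 33 had a mean log2 signal of at least 5.76, the level filter (the median over probe-set means), and were kept. The mean signals of Cdh2, Ocln and Cd44 lay below that level.

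Every sample came from male R1 cells of 129X1 x 129S1 background, grown in LIF and serum and resistant to G418. One line carried a 3xN-FLAG:MKRN1 fusion, expressed constitutively from pCAGGS (FLAG:MKRN1), and the other carried the FLAG construct without MKRN1 (FLAG:Ctrl). MKRN1 is a makorin, a RING-finger protein that binds RNA. Each of the 5 groups is 1 array: total input RNA of each lysate, an anti-FLAG RIP of each, and an IgG RIP made with FLAG:MKRN1 lysate. The comparison asks which RNAs differ in amount when anti-FLAG beads recover FLAG:MKRN1, relative to the 2 control RIPs. The labels speak of clones without saying how many each lysate holds, and all cells also contained their own Mkrn1. Both lines were started on a layer of embryonic fibroblasts, which later passages without feeders were meant to remove.

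Cadherins bind their like on the next cell and are anchored to actin through catenins; claudins and occludin seal the tight junction, and desmosomes tie cells together through intermediate filaments. Integrins are pairs of an alpha and a beta subunit that hold cells to the extracellular matrix, and syndecans and glypicans carry heparan sulphate chains that bind matrix and growth factors. In embryonic stem cells E-cadherin holds the compact colony together, and the transcripts of the transmembrane members are translated at the endoplasmic reticulum.

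Mkrn1 itself had a log2 value of 11.80 in the FLAG:Ctrl input and 11.71 in the FLAG:MKRN1 input. It read 12.20 in the FLAG:Ctrl RIP, 11.99 in the IgG RIP and 11.90 in the anti-FLAG RIP of the FLAG:MKRN1 line. These values do not set the FLAG:MKRN1 lysate above the other, so that RIP is called the MKRN1-labelled RIP, and directions drawn from it rest on its label. Whether the single Mkrn1 probe set reads the construct is not given in the sources used here. Pluripotent cell markers had mean log2 values of 10.81 to 11.34 per array, with 9 of 9 kept. Feeder fibroblast markers had means of 5.24 to 5.41, with 3 of 8 measured genes kept. Those 3 were the collagen genes Col1a1 (6.70 to 6.88), Col1a2 (6.37 to 6.76) and Col3a1 (5.74 to 5.98). The matrix genes Dcn, Lum and Postn lay between 3.72 and 4.96, and Thbs2 between 5.31 and 5.38. Pdgfrb read 6.03 in the FLAG:Ctrl input, above the filter level, and 5.35 to 5.54 on the other arrays. Primitive endoderm markers had means of 5.82 to 6.25, trophectoderm markers 6.54 to 6.70, and neural and mesoderm markers 6.10 to 6.36. The MKRN1-labelled RIP had the narrowest spread of all probe sets, an SD of 2.19 against 2.28 to 2.35. No array has a replicate, so differences carry no error and no test was possible.

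The members that stood lowest in the MKRN1-labelled RIP were Itga6, the alpha-6 integrin subunit that makes a laminin receptor, and Tfrc, the transferrin receptor through which cells take up iron. These were the 2 of 33 members at least 2-fold below both control RIPs and below the input of the same lysate, beside 5.36% of all 11502 genes kept. None of the members met the same rule in the upward direction, beside 1.09% of all genes. A share of 2 in 33 is near the background, so the count of calls does not set the members apart. Both control differences use the same MKRN1-labelled RIP array, so they are not independent of each other.

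**Figure D1:**
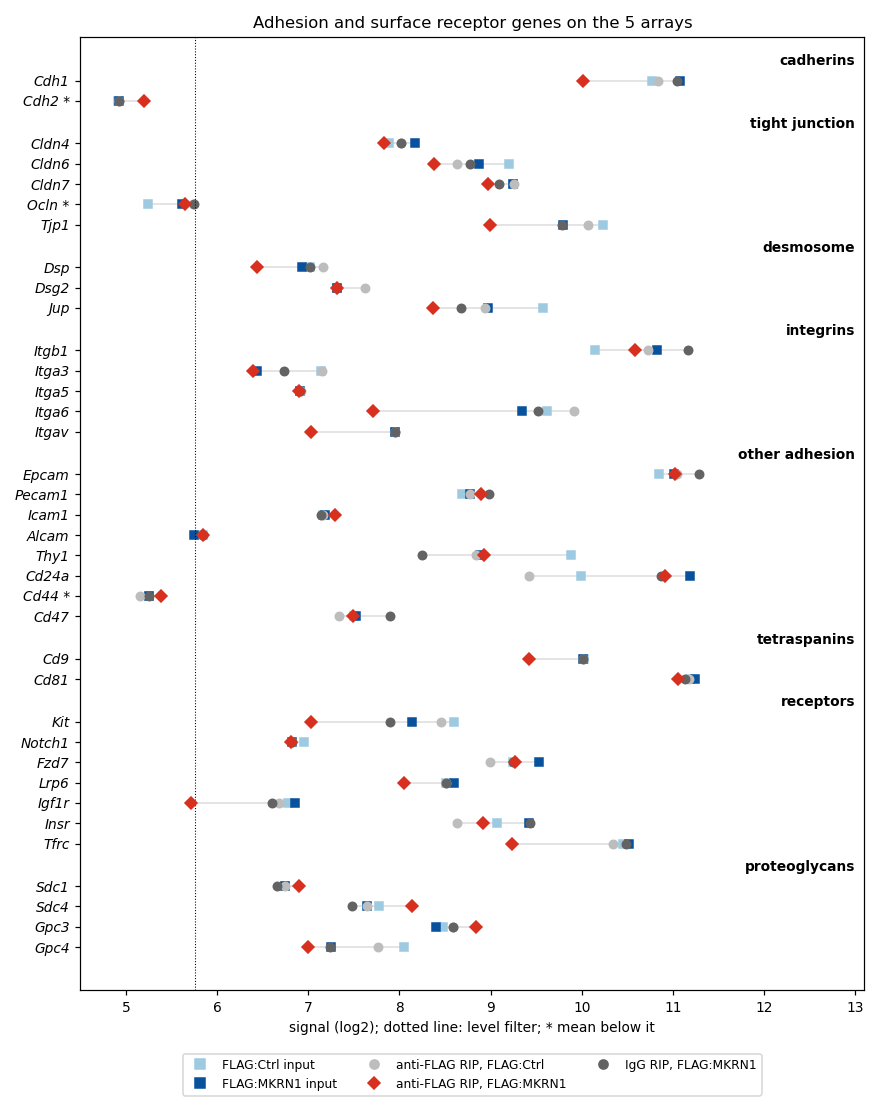
Log2 signal of each member (rows, grouped by role) on the 5 arrays, with 1 array per group. Itga6, Tfrc, Kit, Igf1r and Itgav are low in the MKRN1-labelled RIP, while Cd24a is low in both FLAG:Ctrl arrays and Thy1 is high in the FLAG:Ctrl input.

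Smaller differences leaned to lower values in the MKRN1-labelled RIP. Its signal was below both control RIPs for 21 members and above both for 7, against 44.4% and 34.6% of all genes kept. It was the lowest of the 5 arrays for 19 members and the highest for 4, against 32.6% and 29.5% of all genes. The median difference of the members was -0.19 from the FLAG:Ctrl RIP, -0.26 from the IgG RIP and -0.26 from the FLAG:MKRN1 input, on the log2 scale. All genes kept had medians of -0.03, -0.0010 and 0.00 in these comparisons. This lean depends on the scaling. With each array centred on the median of all probe sets, 26 members lay below both control RIPs and 2 above, beside 70.4% and 20.4% of all genes. With centring on the genes kept, 15 lay below and 12 above, beside 33.9% and 54.3%. These scalings put the median of all genes kept at -0.23 and 0.14 relative to the FLAG:Ctrl RIP, and that of the members at -0.39 and -0.02. Small differences are thus best read against the median of all genes kept. After removal of the trend of the difference with mean signal, 16 members lay below both control RIPs and 11 above, beside 44.2% and 42.9% of all genes. The member median from the FLAG:Ctrl RIP was then -0.0243, beside -0.0041 for all genes, and -0.0255 beside -0.0242 with quantile normalization. Little of the lean relative to the FLAG:Ctrl RIP was left in these 2 settings. From the IgG RIP the member medians were -0.12 and -0.16, beside -0.0085 and -0.0081. At least 1 of these scalings or quantile normalization turned the sign of a control difference for the claudins, Itgb1, Itga5, Epcam, Pecam1, Icam1, Thy1, Cd24a, Cd47, Cd81, Notch1, Fzd7 and Sdc1, whose turned differences were small as deposited.

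The cadherins hold 1 gene with signal. Cdh1, E-cadherin, read 10.77 in the FLAG:Ctrl input, 11.07 in the FLAG:MKRN1 input, 10.83 in the FLAG:Ctrl RIP, 11.05 in the IgG RIP and 10.02 in the MKRN1-labelled RIP. The MKRN1-labelled RIP was the lowest array, and the other 4 spanned 0.30. Cdh1 was 1.76-fold below the FLAG:Ctrl RIP, 2.04-fold below the IgG RIP and 2.08-fold below its own input, so the 2-fold rule was missed against 1 control. Cdh2, N-cadherin, which neural and mesodermal cells use in place of E-cadherin, was dim on every array, between 4.91 and 5.20.

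Among the tight junction genes, Tjp1, which encodes the scaffold ZO-1 that links claudins to actin, differed most. Tjp1 read 10.23 in the FLAG:Ctrl input, 9.79 in the FLAG:MKRN1 input, 10.07 in the FLAG:Ctrl RIP, 9.79 in the IgG RIP and 8.99 in the MKRN1-labelled RIP. The 4 other arrays lay together within 0.45, and the MKRN1-labelled RIP lay 0.80 below the nearest of them. The difference was -1.08 from the FLAG:Ctrl RIP and -0.80 from both the IgG RIP and the input. The claudins, the strands of the seal, differed less. Differences from the FLAG:Ctrl RIP were -0.19 for Cldn4, -0.26 for Cldn6 and -0.29 for Cldn7, and those from the IgG RIP were -0.19, -0.39 and -0.12. With the trend with mean signal removed, all 3 claudins lay slightly above the FLAG:Ctrl RIP, at 0.0075, 0.036 and 0.039. The Cldn7 difference from the IgG RIP also turned, while those of Cldn4 and Cldn6 stayed negative under the scalings tried. Ocln, occludin, stayed dim at 5.24 to 5.74.

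Of the desmosome genes, the 2 that encode plaque proteins lay below both control RIPs. Dsp, desmoplakin, which ties the plaque to keratin filaments, read 7.02 and 6.93 in the FLAG:Ctrl and FLAG:MKRN1 inputs, 7.16 in the FLAG:Ctrl RIP, 7.02 in the IgG RIP and 6.43 in the MKRN1-labelled RIP. Its MKRN1-labelled RIP value was 0.50 below the nearest array, beyond the 0.23 spanned by the others. Jup, plakoglobin, a catenin shared by desmosomes and adherens junctions, was 0.58 below the FLAG:Ctrl RIP and 0.32 below the IgG RIP, a gap of 0.32 to the nearest array against a span of 0.89. For Dsg2, the transmembrane desmoglein, 4 arrays held the same value of 7.31 and the FLAG:Ctrl RIP held 7.62. Equal values of this kind come with the deposited table: 13 of the 33 members had arrays sharing 1 value to within 1e-06, beside 52.8% of all genes kept.

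Integrin subunits had the member with the largest difference. Itga6 read 9.61 in the FLAG:Ctrl input, 9.35 in the FLAG:MKRN1 input, 9.92 in the FLAG:Ctrl RIP, 9.52 in the IgG RIP and 7.71 in the MKRN1-labelled RIP. The 4 other arrays spanned 0.57, and the MKRN1-labelled RIP stood 1.64 below the lowest of them. That is 4.64-fold below the FLAG:Ctrl RIP, 3.52-fold below the IgG RIP and 3.12-fold below the input. Itga6 kept its call under each scaling tried, with the smaller of its 2 control differences between -1.496 and -1.99.

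Itgav, the alpha-v subunit of receptors for RGD-bearing matrix proteins such as vitronectin, read 7.96 in the FLAG:Ctrl input, 7.95 in the FLAG:MKRN1 input, 7.96 in the FLAG:Ctrl RIP, 7.95 in the IgG RIP and 7.03 in the MKRN1-labelled RIP. All arrays but the MKRN1-labelled RIP agreed to 0.0045, and its difference of -0.92 from each of these arrays (1.89-fold lower) stayed just under the 2-fold rule. Itgb1, the common beta-1 partner of most alpha subunits, differed less. It read 10.15 and 10.83 in the FLAG:Ctrl and FLAG:MKRN1 inputs, 10.73 in the FLAG:Ctrl RIP, 11.17 in the IgG RIP and 10.58 in the MKRN1-labelled RIP. The differences were -0.15 from the FLAG:Ctrl RIP, -0.59 from the IgG RIP and -0.24 from its own input. Its lowest array was the FLAG:Ctrl input. Itga3, another laminin-binding subunit, was 0.75 below the FLAG:Ctrl RIP but 0.04 below its own input, since the FLAG:MKRN1 input was itself 0.71 below the FLAG:Ctrl input. Itga5, the fibronectin receptor subunit, was flat at 6.90 to 6.92 on all arrays.

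**Figure D2:**
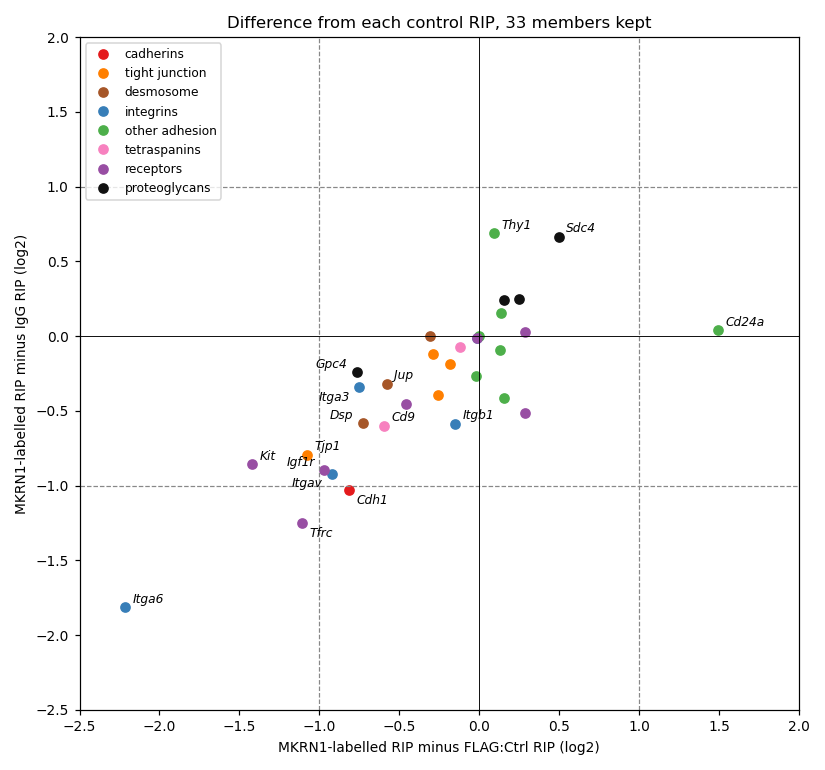
Log2 difference of the MKRN1-labelled RIP from the FLAG:Ctrl RIP (horizontal axis) and the IgG RIP (vertical axis) for the 33 members kept, coloured by role; dashed lines mark 2-fold, and the axes share the MKRN1-labelled RIP array. Itga6 and Tfrc lie beyond 2-fold below on both axes, Kit and Tjp1 on the horizontal one only, Cdh1 on the vertical one only, and Cd24a lies to the right at 1.49 and 0.04.

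Among the receptors, Tfrc, Kit and Igf1r lay lowest in the MKRN1-labelled RIP. Tfrc read 10.45 in the FLAG:Ctrl input, 10.52 in the FLAG:MKRN1 input, 10.34 in the FLAG:Ctrl RIP, 10.49 in the IgG RIP and 9.23 in the MKRN1-labelled RIP. The 4 other arrays lay within 0.18. Tfrc was 2.16-fold below the FLAG:Ctrl RIP, 2.38-fold below the IgG RIP and 2.44-fold below the input. Its call was lost with quantile normalization, with the trend removed and with centring on the genes kept, where the difference from the FLAG:Ctrl RIP was -0.85, -0.76 and -0.95.

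Kit, the tyrosine kinase receptor for stem cell factor, read 8.59 and 8.14 in the FLAG:Ctrl and FLAG:MKRN1 inputs, 8.46 in the FLAG:Ctrl RIP, 7.89 in the IgG RIP and 7.03 in the MKRN1-labelled RIP. It lay lowest in the MKRN1-labelled RIP, with differences of -1.42 from the FLAG:Ctrl RIP, -0.86 from the IgG RIP and -1.11 from the input. Igf1r, the receptor for insulin-like growth factor 1, read 6.78 and 6.86 in the inputs, 6.68 in the FLAG:Ctrl RIP, 6.61 in the IgG RIP and 5.71 in the MKRN1-labelled RIP. Its value in the MKRN1-labelled RIP was under the level filter of 5.76, a level at which dim genes were left out. The differences were -0.97, -0.90 and -1.15.

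The insulin receptor Insr, the closest relative of Igf1r, showed another order with its brighter probe set. Insr read 9.07 and 9.42 in the FLAG:Ctrl and FLAG:MKRN1 inputs, 8.63 in the FLAG:Ctrl RIP, 9.43 in the IgG RIP and 8.91 in the MKRN1-labelled RIP. The FLAG:Ctrl RIP was its lowest array, and the MKRN1-labelled RIP lay between the control RIPs. A dimmer Insr probe set read 6.62 to 6.81. Lrp6, a Wnt co-receptor, was 0.46 below each control RIP and 0.55 below the input. Fzd7, a Frizzled receptor of the same pathway that is abundant in embryonic stem cells, lay 0.28 above the FLAG:Ctrl RIP, 0.03 above the IgG RIP and 0.26 below the input. Notch1, a receptor for ligands on neighbouring cells, read 6.81 to 6.82 on 4 arrays and 6.96 in the FLAG:Ctrl input.

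The tetraspanins, membrane organisers that bind integrins, differed in the same direction by unequal amounts. Cd9, long used as a surface marker of embryonic stem cells, read 10.03 and 10.02 in the inputs, 10.01 in the FLAG:Ctrl RIP, 10.02 in the IgG RIP and 9.42 in the MKRN1-labelled RIP. All but the MKRN1-labelled RIP lay within 0.01, and that array was 0.60 lower, or 0.24 lower than the nearer control RIP with the trend removed. Cd81 was lower by 0.12, 0.07 and 0.18 relative to the FLAG:Ctrl RIP, the IgG RIP and the input, with the sign of its control differences turning under other scalings.

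Most other adhesion genes were close between the RIPs, with Cd24a, Thy1 and Cd47 as exceptions. Cd24a, a small glycosylphosphatidylinositol-anchored glycoprotein, read 9.99 in the FLAG:Ctrl input, 11.19 in the FLAG:MKRN1 input, 9.42 in the FLAG:Ctrl RIP, 10.87 in the IgG RIP and 10.91 in the MKRN1-labelled RIP. All 3 FLAG:MKRN1 arrays were higher than both FLAG:Ctrl arrays, so the 2.81-fold difference from the FLAG:Ctrl RIP came with a 2.29-fold difference between the inputs. Within FLAG:MKRN1 lysate, the MKRN1-labelled RIP and the IgG RIP differed by 0.04. Thy1, another anchored glycoprotein of the immunoglobulin superfamily, read 9.88 in the FLAG:Ctrl input, 8.89 in the FLAG:MKRN1 input, 8.84 in the FLAG:Ctrl RIP, 8.25 in the IgG RIP and 8.93 in the MKRN1-labelled RIP. The FLAG:Ctrl input alone was high, and the IgG RIP was the lowest array.

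Epcam, the epithelial adhesion molecule of undifferentiated stem cells, read 10.84 to 11.29, and Pecam1, an immunoglobulin-superfamily molecule also used to sort them, read 8.68 to 8.99. Both had their highest value in the IgG RIP. Cd47, a surface ligand that signals to phagocytes, read 7.34 to 7.90 with its brighter probe set and 6.32 to 7.21 with the other. With the brighter Cd47 probe set the MKRN1-labelled RIP lay above the FLAG:Ctrl RIP and below the IgG RIP. With the other it lay above both, by 0.76 and 0.25. Icam1, a ligand of leukocyte integrins, read 7.14 to 7.29 with the MKRN1-labelled RIP highest, and Alcam, a ligand of CD6, held 5.85 on 4 arrays. Cd44, a hyaluronan receptor, was dim at 5.15 to 5.39.

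Of the 4 proteoglycans, 3 lay above both control RIPs in the MKRN1-labelled RIP. Sdc4, the syndecan of focal adhesions, read 7.77 and 7.64 in the FLAG:Ctrl and FLAG:MKRN1 inputs, 7.64 in the FLAG:Ctrl RIP, 7.47 in the IgG RIP and 8.14 in the MKRN1-labelled RIP. The MKRN1-labelled RIP was highest, and the differences of 0.50, 0.66 and 0.50 were under 2-fold. Gpc3, a glypican attached by a lipid anchor, read 8.48 and 8.40 in the inputs, 8.59 in the FLAG:Ctrl RIP, 8.59 in the IgG RIP and 8.84 in the MKRN1-labelled RIP. Sdc1, a syndecan of epithelia, lay 0.15 and 0.24 above the control RIPs. Its direction and the size of the Gpc3 difference depend on scaling, and centring on all probe sets leaves Gpc3 at 0.04 and 0.07. Gpc4, the glypican that neighbours Gpc3 in the genome, went the other way. Gpc4 read 8.05 in the FLAG:Ctrl input, 7.25 in the FLAG:MKRN1 input, 7.76 in the FLAG:Ctrl RIP, 7.24 in the IgG RIP and 6.99 in the MKRN1-labelled RIP. All 3 FLAG:MKRN1 arrays were below both FLAG:Ctrl arrays, and the difference from the IgG RIP was -0.24.

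Set side by side, the families differed in their medians but held few genes each. Relative to the FLAG:Ctrl RIP, the IgG RIP and the input, the medians were -0.75, -0.59 and -0.24 over 5 integrins and -0.46, -0.52 and -0.55 over 7 receptors. The 3 desmosome genes had -0.58, -0.32 and -0.50, the 4 tight junction genes -0.27, -0.29 and -0.41, and the tetraspanins -0.36, -0.34 and -0.39. The 7 other adhesion genes had 0.13, 0.00 and 0.04, and the 4 proteoglycans 0.20, 0.25 and 0.30. Among these members, junction, integrin and receptor medians were thus lower in the MKRN1-labelled RIP, and those of other adhesion genes and proteoglycans near or above 0. Centring on all probe sets turned the other adhesion medians relative to the FLAG:Ctrl RIP and the input to -0.08 and -0.06, and that of the proteoglycans relative to the FLAG:Ctrl RIP to -0.0030. Removing the trend with signal turned the tight junction median relative to the FLAG:Ctrl RIP to 0.02.

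**Figure D3:**
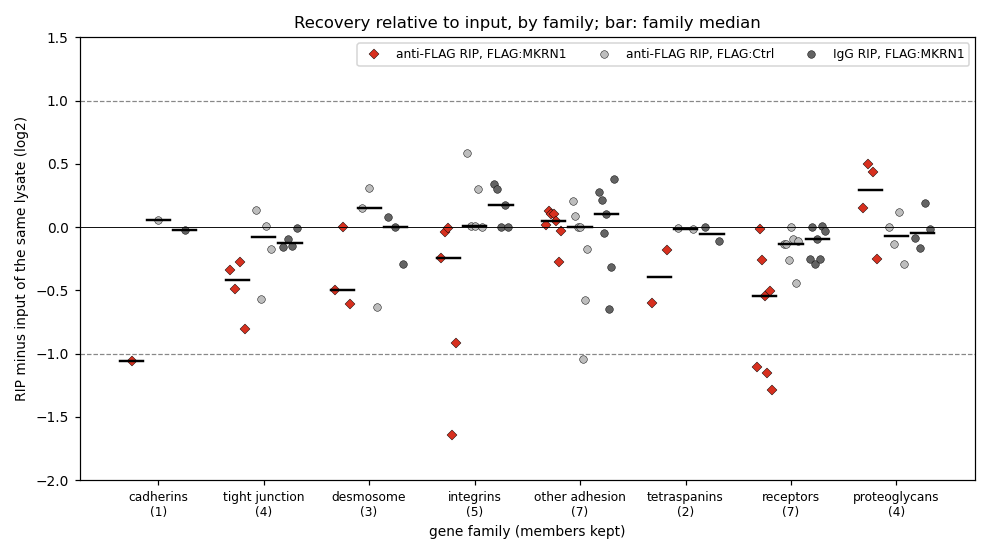
Log2 difference of each RIP from the input of its own lysate, by role, for the 33 members kept. Points are genes, each 1 RIP array minus 1 input array, and short lines are medians. The MKRN1-labelled RIP and the IgG RIP share the FLAG:MKRN1 input array. Itga6 and Tfrc, at -1.64 and -1.29 in the MKRN1-labelled RIP, differ from their input by 0.30 or less in both control RIPs.

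Fewer members were 2-fold from their input in each control RIP than in the MKRN1-labelled RIP. Some members, such as Thy1 and Itgb1, lay farther from input in both control RIPs. Against the FLAG:MKRN1 input, Cdh1, Itga6, Kit, Igf1r and Tfrc lay at least 2-fold lower in the MKRN1-labelled RIP and no member 2-fold higher, beside 5.51% and 2.47% of all genes. In the FLAG:Ctrl RIP only Thy1 lay 2-fold below its input, at -1.04, and none above, beside 0.374% and 0.948%. In the IgG RIP no member was 2-fold from its input in either direction, beside 0.461% lower and 1.32% higher among all genes. Against the FLAG:Ctrl RIP alone, Tjp1, Itga6, Kit and Tfrc were 2-fold lower in the MKRN1-labelled RIP and Cd24a 2-fold higher, beside 7.11% and 1.62%. Against the IgG RIP alone, Cdh1, Itga6 and Tfrc were 2-fold lower and no member higher, beside 6.94% and 1.53%.

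For 11 members the MKRN1-labelled RIP lay farther below its nearest array than the other 4 arrays spanned among themselves, which held for 19.0% of all genes kept. They were Cdh1, Tjp1, Dsp, Itga5, Itga6, Itgav, Cd9, Kit, Lrp6, Igf1r and Tfrc. The Itga5 gap was 0.01, so its place there reflects 4 nearly equal values. In the opposite direction this held for Icam1, Sdc1, Sdc4 and Gpc3, beside 16.6% of all genes. Across all genes kept, the difference from the FLAG:Ctrl RIP went with mean signal (Pearson's r = -0.29 over 11502 genes, which share the same arrays), and brighter genes lay lower. Over the 33 members r was 0.03 for the difference from the FLAG:Ctrl RIP and -0.24 for that from the IgG RIP. With that trend removed, the smaller control difference was -1.496 for Itga6, -0.99 for Igf1r and -0.76 for Itgav and Tfrc. It was -0.69 for Kit, -0.61 for Dsp and -0.50 for Cdh1.

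Between the inputs, only Cd24a differed by 2-fold, higher in FLAG:MKRN1 lysate by 1.19, and no member was 2-fold lower, beside 0.878% and 0.791% of all genes. Thy1 came next at -0.99, followed by Gpc4 at -0.81, Itga3 at -0.71, Itgb1 at 0.68 and Jup at -0.60. In bulk lysates, fewer cells of a type and less RNA per cell cannot be told apart. Some marker genes kept differed by 2-fold between these inputs, a larger share than the 0.791% lower and 0.878% higher among all genes, though from short lists. They were 1 of 5 primitive endoderm markers kept (Dab2 at -1.75, FLAG:MKRN1 minus FLAG:Ctrl), 1 of 3 neural and mesoderm markers (Pax6 at 1.16) and 1 of 9 pluripotency markers (Klf4 at -1.17). None of the 3 feeder or 5 trophectoderm markers kept did so. The list medians were -0.05 for primitive endoderm, 0.39 for neural and mesoderm, -0.09 for pluripotency, -0.07 for feeders and -0.03 for trophectoderm. Their part in the member differences was not tested.

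**Figure D4:**
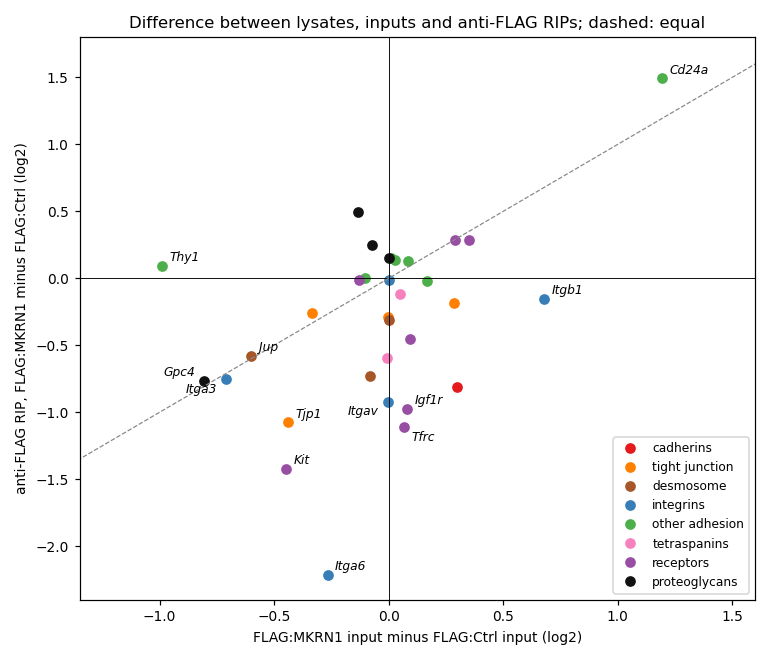
Log2 difference between lysates (FLAG:MKRN1 minus FLAG:Ctrl) in the inputs (horizontal axis) and in the anti-FLAG RIPs (vertical axis) for the 33 members kept, coloured by role; the axes share no array. Cd24a is high on both at 1.19 and 1.49, and Itga6 is at -0.27 and -2.21.

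The lysate difference in the anti-FLAG RIPs was then set beside that in the inputs. Over the 33 members, Pearson's r between the input difference and the RIP difference was 0.47 and Spearman's rho 0.33. Without Cd24a these were 0.28 and 0.26, so the relation leans on that gene. Over all genes kept, r was 0.16. These comparisons share no array but share their lysates, and genes are not replicates. Jup, Tjp1, Kit, Gpc4 and Itga3 were lower in the FLAG:MKRN1 input as well as in its anti-FLAG RIP. For Itga6, Tfrc, Itgav, Igf1r and Cd9 the inputs lay within 0.27, and Cdh1 was 0.30 higher in the FLAG:MKRN1 input.

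The control RIPs differ in both lysate and antibody. Cd24a alone was 2-fold apart between them, lower in the FLAG:Ctrl RIP by 1.45, and no member was 2-fold higher there, beside 0.278% and 0.174% of all genes. Insr followed at -0.80, with Thy1 at 0.60, Kit at 0.57, Cd47 at -0.56 and Gpc4 at 0.52. The SD of this difference over all genes kept was 0.243, against 0.571 and 0.5495 for the MKRN1-labelled RIP minus each control RIP. It is a spread over genes on single arrays, not a replicate error.

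Other genes of these pathways were read from lists of relatives, 98 genes in all with 93 measured and 68 kept. Of the 68, 5 were called lower and none higher in the MKRN1-labelled RIP, beside the 5.36% and 1.09% of all genes given above. Their median differences from the FLAG:Ctrl RIP, the IgG RIP and the input were -0.0093, -0.04 and -0.0010. By list, these medians were -0.05, -0.26 and 0.00 for other junction genes, -0.17, -0.15 and -0.15 for other integrins and linkers, and -0.04, -0.02 and -0.0055 for other receptors. Other tetraspanins had 0.07, 0.07 and 0.22, and other proteoglycans 0.11, 0.0096 and 0.03. Bmpr1a, a receptor for bone morphogenetic proteins, was -2.13 and -2.35 from the FLAG:Ctrl and IgG RIPs. Lifr and Il6st, which pair as the receptor for LIF, the cytokine of the culture medium, were at -1.43 and -1.23, and at -1.39 and -1.41. Igf2r, the mannose 6-phosphate receptor that clears insulin-like growth factor 2, was -1.23 and -1.42. These 4 were among 20 other receptors kept. Ilk, a kinase-like linker from beta integrins to actin, was at -1.30 and -1.402, among 11 other integrins and linkers kept. Of 21 other junction genes, 10 other tetraspanins and 6 other proteoglycans kept, none was called.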

How the data were processed

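The 5 arrays were read from the authors' deposited table of log2 values, 1 per probe set. The log2 scale was inferred from the values, which run from 2.56 to 14.4. Per the labels, RNA was biotin-labelled by standard Affymetrix procedures. Background correction, summarisation, normalization and genome build: not given in the sources used here. No coordinates are printed. No further scaling was applied to the main values.

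Of 34760 probe sets, 21640 had 1 gene symbol, 1321 several and 11799 none in the platform annotation; symbols were updated through RefSeq (GRCm38.p6), with 21553 matched. The brightest probe set of a gene was used. All 36 members are named, with called genes from each list of relatives, up to 4 a list. Some genes of the lists are not reported here. The members, lists and rules were chosen with earlier results of these data known.

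A gene was called at 2-fold from both control RIPs, on the same side as its own input. Each group has 1 array, which limits precision. Alternatives covered scaling, probe set choice, filters, floor and call rule. Python 3.11.15, numpy 2.4.6, pandas 2.3.3 and scipy 1.17.1 were used.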

Additional observations from a re-analysis of the deposited data

Results flagged for a closer look

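For Cdh1, Itga6 and Thy1 the anti-FLAG RIP lay on opposite sides of the input in the 2 lysates, with a difference of at least 2-fold in 1 of them. Cdh1 was -1.06 from its input in FLAG:MKRN1 lysate and 0.059 in FLAG:Ctrl lysate. Itga6 was -1.64 in FLAG:MKRN1 lysate and 0.30 in FLAG:Ctrl lysate. Thy1 was 0.044 in FLAG:MKRN1 lysate and -1.04 in FLAG:Ctrl lysate, where the input itself was the high array. With 1 array each, these differences between lysates were not tested.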

How the results depend on the processing

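The number of members called lower, 2 as deposited, became 6 with centring on all probe sets (Cdh1, Igf1r, Itga6, Itgav, Kit and Tfrc), 1 with the trend removed, 1 with centring on the genes kept (chosen after seeing the data), 8 at 1.5-fold, 0 at 4-fold and 4 with the FLAG:Ctrl RIP as the only control. Itga6 was called in all settings but 4-fold. With quantile normalization the 2 called were Itga6 and Igf1r, beside 3.61% of all genes. No setting called a member higher. Over all genes, 617 lower calls became 968, 323, 405, 1654 and 23 with centring on all probe sets, trend removal, centring on the genes kept, 1.5-fold and 4-fold. The 125 higher calls became 64 and 190 under these centrings, 59 with the filter at the 75th percentile, 548 at 1.5-fold and 16 at 4-fold. Higher calls made up 16.8% of all calls as deposited, 6.2% and 31.9% under these centrings, 30.6% with quantile normalization and 35.5% with the trend removed.

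Quantile normalization gave medians relative to the FLAG:Ctrl RIP of -0.56 for cadherins, -0.022 for tight junction genes and -0.11 for tetraspanins, and relative to the IgG RIP of -0.75, -0.070 (tetraspanins) and -0.26 (receptors). Trend removal gave, relative to the FLAG:Ctrl RIP, -0.50 for cadherins, 0.022 for tight junction, -0.28 for desmosome, -0.038 for tetraspanins and -0.20 for receptors; relative to the IgG RIP, -0.72 for cadherins, -0.028 for desmosome, -0.024 for tetraspanins and -0.23 for receptors. The smaller control difference, set to 0 where the signs of the control differences disagree, moved with quantile normalization to -0.56 (Cdh1), -0.50 (Tjp1), 0.34 (Thy1), -0.29 (Cd9), 0.31 (Fzd7), -0.85 (Tfrc) and 0.49 (Gpc3). With the trend removed it was -0.50 (Cdh1), 0 (Cldn6), -0.46 (Tjp1), -0.028 (Jup), -1.496 (Itga6), 0.40 (Thy1), 0.36 (Cd24a), -0.24 (Cd9), 0.35 (Fzd7), -0.20 (Lrp6), -0.76 (Tfrc) and 0.50 (Gpc3). The causes were not tested. No paired analysis was possible because each group has 1 array, which also leaves no replicate to leave out.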
